A study of Mus musculus with 4 samples.

Results

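The interleukin-1 family and inflammasome genes described here are Il1a, Il1b, Il1rn, Il1r2, Il18, Il18bp, Nlrp3, Casp1, Casp4 and Gsdmd, 10 of the 54146 genes in the count table, chosen by name and matched through their Ensembl identifiers. They were measured by RNA sequencing in tumor-associated macrophages (TAMs), which were enriched for CD45 and sorted as live CD11b+F4/80+ cells from subcutaneous MCA205 tumors, a mouse fibrosarcoma line, grown in female C57BL/6 mice aged 8 to 16 weeks. The comparison was between 2 libraries from mice given propranolol, a nonselective beta blocker, at 0.5 g/L in the drinking water from the day of tumor inoculation, and 2 libraries from control mice, labelled vehicle. It asks how beta-adrenergic blockade in the host altered gene expression in TAMs. The counts of fragments on exons added up to 13798249 and 23018142 in control replicates 1 and 2 and to 39818103 and 16424081 in propranolol replicates 1 and 2. The study describes the libraries of a group as biological replicates, and the labels do not say whether each came from a single mouse or from pooled mice. The p-values measure the spread between these libraries.

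Interleukin-1 alpha and beta are inflammatory cytokines that signal through the receptor Il1r1 and the adaptor Myd88, while the receptor antagonist encoded by Il1rn and the decoy receptor encoded by Il1r2 oppose them. Interleukin-1 beta and interleukin-18 are made as precursors, and caspase-1 cleaves them once a sensor such as Nlrp3 has assembled an inflammasome with the adaptor Pycard. Macrophages are a main source of both cytokines, and in tumors these cytokines are known to shape the recruitment of myeloid cells and lymphocytes.

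Of the 10 genes, Nlrp3 and Il1r2 rose and Casp1 fell in TAMs from propranolol treated mice. Nlrp3 was 1.78-fold and Il1r2 1.71-fold higher, and Casp1 was 2.55-fold lower than in control TAMs. Calls come from the edgeR quasi-likelihood test over 14688 tested genes and need both an adjusted p (Benjamini-Hochberg) under 0.05 and a fold change beyond 1.5. The 3 called genes were 30% of the members, all of which were tested, and 27.8% of all tested genes were called (12.2% higher and 15.6% lower). With no demand on the fold change, 5 of the 10 passed, against 42.2% of all tested genes. The members had a median log2 fold change of 0.18, against -0.02 over all tested genes. The median of the members was 0.34 without control replicate 1 and 0.075 without propranolol replicate 1.

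A second reading is given beside each gene, because the fold change moved with the base composition of the transcript. Across 14681 tested genes, which are not independent replicates, the log2 fold change had a Spearman correlation of 0.577 with the GC content of the gene. The members ranged from 38.1% GC in Casp4 to 54.4% in Gsdmd, and the median over tested genes was 49.6%. Casp4, Casp1, Il1a, Il1rn, Il18, Il1b and Il1r2 lay below that median, and Il18bp, Nlrp3 and Gsdmd above it. Since the fold change rose with GC content, removing the trend raises genes low in GC relative to the others. After removal of this trend, library by library (GC correction), 7 of the 10 members were called, 6 of them higher and 1 lower, against 12.6% of all tested genes (7.64% higher and 4.99% lower). The correction moved the median log2 fold change of all tested genes from -0.02 to 0.09, and that of the members from 0.18 to 0.73. Whether the trend arose in the cells or in the libraries was not tested.

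The sorted cells were checked against marker lists before the genes were read. Macrophage markers summed to 33807 and 32007 CPM (counts scaled to a common library size after TMM normalization) in control replicates 1 and 2 and to 42779 and 41467 CPM in propranolol replicates 1 and 2, and 1 of the 12, Csf1r, was called, as higher. After GC correction Csf1r was at 0.32 on the log2 scale and not called, and Mrc1 was called higher instead (0.85). When edgeR glmTreat tested against a 1.5-fold change, 0 of the 12 were called. The most abundant macrophage marker was Apoe, an apolipoprotein of TAMs. Neutrophil markers were lower in level, at 246 and 262 CPM in control and 551 and 599 CPM in propranolol libraries, and 8 of the 11 tested among 16 were called higher. Csf3r was the most abundant of these, and Ly6g, which defines neutrophils in mice, had 0 and 2 counts in control and 17 and 8 counts in propranolol libraries. T and NK cell markers summed to 391 and 422 CPM in control and 192 and 102 CPM in propranolol libraries, with 11 of 12 lower and Gzmb the most abundant.

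Among the other lists, monocyte markers summed to 969 and 875 CPM in control and 1138 and 989 CPM in propranolol libraries, with F13a1 the most abundant and 4 of 8 higher. Dendritic cell markers, led by Batf3, summed to 50.2 and 55.8 CPM in control and 44.5 and 36.6 CPM in propranolol libraries, with 3 of 8 lower (1 of 8 after GC correction). Fibroblast or fibrosarcoma markers, led by Col3a1, set control replicate 1 apart, at 3240 CPM against 1181 CPM in control replicate 2 and 674 and 726 CPM in the propranolol libraries, with 6 of 8 lower. Their median log2 fold change was -1.96, and -0.85 without control replicate 1, and 4 of 8 were called lower by DESeq2. B cell markers, led by Cd79b, summed to 9.98 and 14.2 CPM in control and 21.0 and 22.1 CPM in propranolol libraries. Of the 3 tested among 6, Cd79b was higher and Ms4a1 lower. No B cell marker was called after GC correction or by edgeR glmTreat, and none was called lower by DESeq2. Markers of mast cells, basophils or eosinophils, led by Kit, summed to 15.4 and 14.2 CPM in control and 9.24 and 10.3 CPM in propranolol libraries. Of their 9 genes 4 were tested, Kit and Gata2 were lower, and Mcpt8, Fcer1a and Epx had 0 counts. Of this list edgeR glmTreat called 0 genes and DESeq2 1, and 2 were called lower after GC correction. Endothelial markers, led by Pecam1, summed to 49.4 and 47.7 CPM in control and 62.8 and 61.2 CPM in propranolol libraries. Of the 5 tested among 6, Cdh5 was higher, and no endothelial marker was called after GC correction or by DESeq2. The CD45 enrichment and the CD11b and F4/80 gate aim to remove most T, NK and B cells, fibroblasts, tumor and endothelial cells. The F4/80 gate aims to remove neutrophils as well, and the study checked the sorted cells for purity. Each of these marker lists still had counts in every library, and the part of these cells in the changes was not tested. In bulk RNA, fewer cells of a type and less RNA per cell cannot be told apart.

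**Figure D1:**
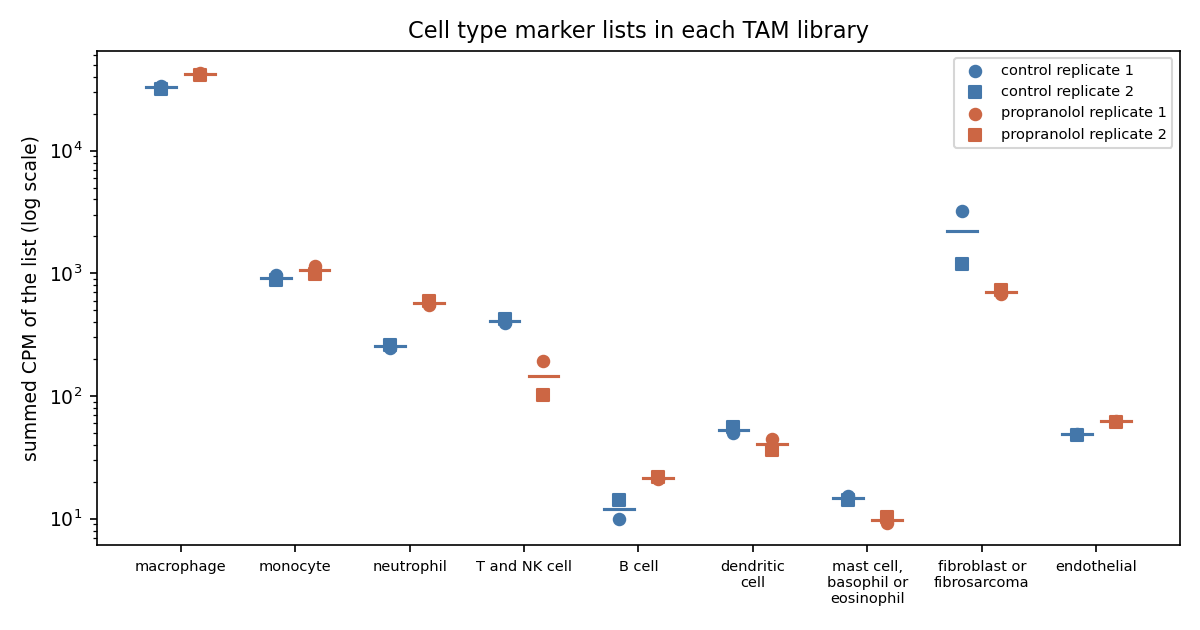
Summed CPM (log scale) of the genes of 9 cell type marker lists in each TAM library, with circles for replicate 1, squares for replicate 2, blue for control, orange for propranolol and a bar at the mean of each group. Macrophage markers lie highest in every library, neutrophil markers lie higher in both propranolol libraries (551 and 599 CPM) than in both control libraries (246 and 262 CPM), T and NK cell markers lie lower, and control replicate 1 stands above the others in the fibroblast or fibrosarcoma list.

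Sequences upstream of 3 genes are shown here, those of Nlrp3 and Casp1 as the sensor and the protease that moved in opposite directions, and that of Il1b as the most abundant member. Each is the 250 bases before a RefSeq transcription start (GRCm38.p6), on the strand of the gene and outside annotated exons, with the letters of a searched motif in capitals. The window of Nlrp3 precedes the second of its RefSeq starts and lies at chr11:59542436-59542685 on the plus strand, that of Casp1 at chr9:5298267-5298516 on the plus strand and that of Il1b at chr2:129371140-129371389 on the minus strand.
Nlrp3: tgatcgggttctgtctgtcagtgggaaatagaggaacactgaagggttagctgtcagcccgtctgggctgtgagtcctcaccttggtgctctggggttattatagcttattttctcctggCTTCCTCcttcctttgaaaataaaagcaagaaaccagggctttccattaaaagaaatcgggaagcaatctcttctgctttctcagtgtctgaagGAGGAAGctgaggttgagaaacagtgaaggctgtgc
Casp1: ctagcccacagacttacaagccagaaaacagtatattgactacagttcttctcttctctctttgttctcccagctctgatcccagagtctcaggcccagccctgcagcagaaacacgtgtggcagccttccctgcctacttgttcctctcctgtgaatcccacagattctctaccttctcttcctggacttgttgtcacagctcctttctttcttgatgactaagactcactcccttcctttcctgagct
Il1b: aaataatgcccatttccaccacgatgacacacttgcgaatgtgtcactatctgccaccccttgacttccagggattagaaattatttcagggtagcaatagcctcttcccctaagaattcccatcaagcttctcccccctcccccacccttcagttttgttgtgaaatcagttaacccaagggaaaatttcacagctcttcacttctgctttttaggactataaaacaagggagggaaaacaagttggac
The capitals in the Nlrp3 window are the PU.1-type letters GAGGAAG, or CTTCCTC on the other strand, which stood 130 to 124 and 36 to 30 bases before the start. PU.1 is a factor that macrophages need for their identity.

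The motifs were searched on both strands in the RefSeq windows of 9 of the 10 members, all but Gsdmd, and in 32851 windows of all genes. PU.1-type letters were in 10.6% of all windows and, among the members, in the shown window of Nlrp3 and in that of Il1a. The window of the first RefSeq start of Nlrp3, which is not shown because it reaches into an exon, held none of the searched motifs. The full cyclic AMP response element TGACGTCA, bound by the factor CREB downstream of beta-adrenergic receptors, was in 1.55% of all windows and in none of the members. The shorter core TGACG, which the full site contains, was in 17.8% of all windows and among the members in Casp4. AP-1 letters TGANTCA (6.75% of all windows) were in Il1a and Il1rn, NF-kB-type letters, GGG and TTTCC with 2 free bases between them (1.41%), in Casp4, in 2 places, and in Il1rn, and GAS-type letters TTCNNNGAA (7.02%) in Il1r2. IRF-type letters, GAAA and GAAA with 2 free bases between them (2.98% of all windows), were in none of the members. A match describes letters and not a binding site, and the windows of Casp1 and Il1b, where none was found, say nothing about any factor.

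None of the 3 cytokine genes was called, and Il1b was the most abundant of the 10. Il1b (ENSMUSG00000027398.13, GRCm38 chromosome 2, 129364570 to 129371139, minus strand) had 302 and 285 CPM in control replicates 1 and 2 and 385 and 394 CPM in propranolol replicates 1 and 2. Both propranolol libraries lay above both control libraries, and the pair within each group lay close together. This difference of 0.41 on the log2 scale (standard error 0.09, adjusted p = 0.00586 in the edgeR test) is 1.33-fold and under the fold threshold. After GC correction it was 0.69 (adjusted p = 0.00116 in the same edgeR test) and the gene was called higher. Il1b has a GC content of 46.3%, and 25 bases of its exons are shared with the antisense gene Il1bos, which had 9 to 52 counts in a library. The part of neutrophils and monocytes, whose markers rose in the same libraries, in the difference of Il1b was not tested.

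Il1a (chromosome 2, 129299610 to 129309972, minus strand), whose product signals through the same receptor and is active without cleavage by caspase-1, had 11.5 and 9.05 CPM in control and 12.4 and 10.5 CPM in propranolol libraries. The groups overlapped, since propranolol replicate 2 lay below control replicate 1. Il1a differed by 0.18 on the log2 scale (standard error 0.20, edgeR adjusted p = 0.515). At a GC content of 41.3%, the correction raised it to 0.90 (standard error 0.19, edgeR adjusted p = 0.00972), so that the call for Il1a rests on the correction. An overlapping gene on the opposite strand, Gm14023, shares 222 bases of exon with Il1a and had 8 to 28 counts in a library.

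Il18 (chromosome 9, 50554827 to 50581840, plus strand), a cytokine that induces interferon gamma in T and NK cells, had 14.1 and 12.7 CPM in control and 11.1 and 8.45 CPM in propranolol libraries. Both propranolol libraries were lower than both control libraries, and propranolol replicate 2 was the lowest. On the log2 scale the difference of Il18 was -0.44 (standard error 0.20, adjusted p = 0.106 in the edgeR test) and -0.06 after GC correction, and neither was called. Without propranolol replicate 1 it was -0.66 and was called lower (edgeR adjusted p = 0.0396), and leaving out propranolol replicate 2 instead gave -0.23 (edgeR adjusted p = 0.483). Bco2 and Tex12 overlap Il18 on the opposite strand with 0 shared bases of exon.

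**Figure D2:**
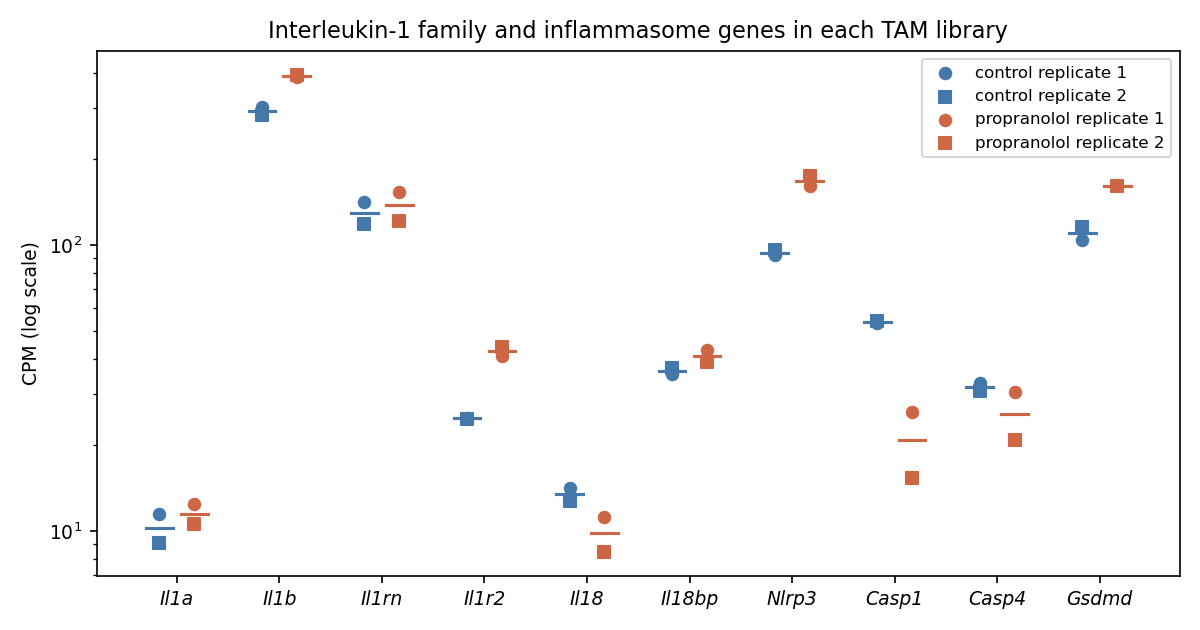
CPM (log scale) of each of the 10 genes in each TAM library, with circles for replicate 1, squares for replicate 2, blue for control, orange for propranolol and a bar at the mean of each group. The propranolol libraries lie above the control libraries for Il1b, Il1r2, Il18bp, Nlrp3 and Gsdmd and below them for Il18, Casp1 and Casp4, and the groups overlap for Il1a and Il1rn.

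Of the genes that restrain these cytokines, the decoy receptor rose and the others were not called. Il1r2 (ENSMUSG00000026073.13, chromosome 1, 40074079 to 40125231, plus strand), which binds interleukin-1 without signalling, had 24.9 and 24.6 CPM in control and 40.9 and 43.9 CPM in propranolol libraries. The control libraries were nearly equal and both propranolol libraries stood above them. In the edgeR test Il1r2 rose by 0.77 on the log2 scale (standard error 0.12, adjusted p = 0.000919), and by 0.85 after GC correction (edgeR adjusted p = 0.00135). Without control replicate 1, the library with the most fibroblast markers, the rise was 0.84. The adjusted p was 0.155 when edgeR glmTreat tested against a 1.5-fold change. Gm16894 and Gm37347 overlap Il1r2 with 0 shared bases of exon. Il1r2 is also transcribed in neutrophils, whose markers rose in the same libraries, and their part in the result was not tested.

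Il1rn (chromosome 2, 24336853 to 24351494, plus strand), the receptor antagonist, had 141 and 118 CPM in control and 153 and 122 CPM in propranolol libraries. Replicate 1 was the higher library in each group and the groups overlapped. Il1rn differed by 0.09 on the log2 scale (standard error 0.13, edgeR adjusted p = 0.630), which turned to -0.02 without control replicate 2 and to -0.088 without propranolol replicate 1. After GC correction it was 0.77 and called higher (edgeR adjusted p = 0.00213), at a GC content of 41.6%.

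Il18bp (chromosome 7, 102014885 to 102018690, minus strand), a secreted protein that captures interleukin-18, had 35.5 and 37.1 CPM in control and 42.9 and 38.8 CPM in propranolol libraries. The propranolol libraries lay above the control libraries by a small margin. For Il18bp the log2 difference was 0.17 (standard error 0.12, edgeR adjusted p = 0.276) and 0.19 after GC correction, and it was called under none of the alternatives. It shares 80 bases of exon with Numa1 on the opposite strand, and the strand setting of the counting is not stated in the sources used here.

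The ratio of inhibitor to cytokine transcripts was compared within each library on the TPM scale, which divides by exon length. Il1rn transcripts were 0.161 and 0.143 of the Il1b level in control and 0.137 and 0.106 in propranolol libraries, a difference of -0.33 in mean log2 ratio, which moved to -0.51 when propranolol replicate 1 was left out and to -0.15 when propranolol replicate 2 was left out. Il1r2 transcripts were 0.0823 and 0.0865 of the Il1b level in control and 0.106 and 0.112 in propranolol libraries, a difference of 0.37. Il18bp transcripts were 0.857 and 0.994 of the Il18 level in control and 1.31 and 1.57 in propranolol libraries, a difference of 0.64. In all 3 ratios the groups were separate, with the antagonist lower and both the decoy receptor and the binding protein higher relative to their cytokine after propranolol. After GC correction the difference for Il1rn was 0.076, in the opposite direction, and those for Il1r2 and Il18bp were 0.16 and 0.28. With 2 libraries against 2, the exact permutation test (two-sided) cannot give a p below 1 in 3, and it gave that p, before and after adjustment, for each of the 3 ratios.

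**Figure D3:**
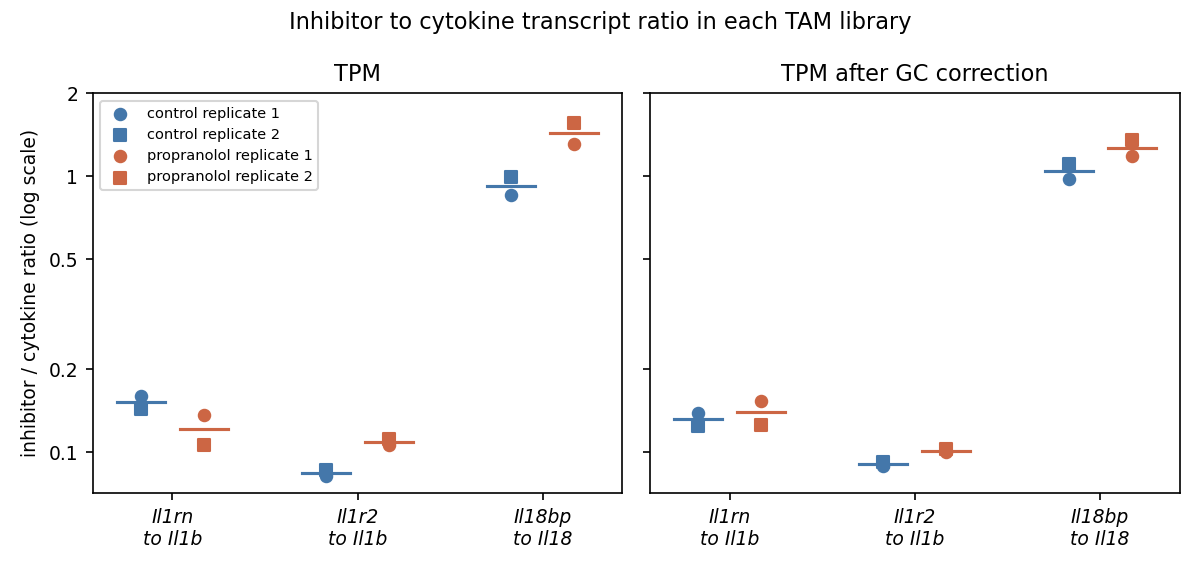
Ratio of inhibitor to cytokine transcripts (TPM, log scale) in each TAM library before (left) and after (right) GC correction. Circles mark replicate 1, squares replicate 2, blue control, orange propranolol, and a bar the arithmetic mean of the ratios in each group. Before correction Il1rn to Il1b is lower and Il1r2 to Il1b and Il18bp to Il18 are higher in the propranolol libraries, and after correction the groups overlap for Il1rn to Il1b.

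The sensor of the inflammasome and its protease moved in opposite directions. Nlrp3 (ENSMUSG00000032691.14, chromosome 11, 59541568 to 59566956, plus strand), which senses ion fluxes and membrane damage and seeds the inflammasome, had 92.0 and 95.5 CPM in control and 160.1 and 175 CPM in propranolol libraries. The replicates of each group were close and the gap between the groups was wide against them. Nlrp3 rose by 0.84 on the log2 scale (standard error 0.10, adjusted p = 0.000253 in the edgeR test) and by 0.76 after GC correction (edgeR adjusted p = 0.000899). With each library left out in turn the rise lay between 0.80 and 0.90. Against a 1.5-fold change, edgeR glmTreat gave an adjusted p of 0.0505. Neutrophil markers and 4 of 8 monocyte markers rose in the same libraries, and the part of these cells in the rise of Nlrp3 was not tested.

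Casp1 (ENSMUSG00000025888.5, chromosome 9, 5298517 to 5307265, plus strand), the protease that matures interleukin-1 beta and interleukin-18, had 53.4 and 54.2 CPM in control and 26.1 and 15.3 CPM in propranolol libraries. The control libraries were nearly equal, both propranolol libraries were lower, and they differed from each other. Casp1 differed by -1.35 on the log2 scale (standard error 0.20, edgeR adjusted p = 0.000712). Leaving out propranolol replicate 1 gave -1.81, leaving out propranolol replicate 2 gave -1.01 and leaving out control replicate 1 gave -1.31. After GC correction Casp1, at 41.1% GC, fell by 0.62 on the log2 scale (standard error 0.18, edgeR adjusted p = 0.0327) and was still called lower. Casp1 is also transcribed in T and NK cells, whose summed markers were lowest in propranolol replicate 2 as well, and their part in the result was not tested.

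Casp4 (chromosome 9, 5308828 to 5336783, plus strand), which lies next to Casp1 and encodes the mouse caspase-11 that senses bacterial lipopolysaccharide in the cytosol, had 32.8 and 30.9 CPM in control and 30.5 and 20.8 CPM in propranolol libraries. Propranolol replicate 1 lay just under the control libraries and propranolol replicate 2 well under them. Casp4 differed by -0.30 on the log2 scale (standard error 0.17, edgeR adjusted p = 0.202), and -0.61 without propranolol replicate 1, where it was called lower (edgeR adjusted p = 0.00459). Leaving out propranolol replicate 2 instead gave -0.029 (edgeR adjusted p = 0.911). Casp4 has the lowest GC content of the members, and after GC correction its direction turned to 0.80 (standard error 0.15, edgeR adjusted p = 0.00595), called higher. Its direction thus depended on the correction.

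Gsdmd (chromosome 15, 75862327 to 75867408, plus strand), the pore-forming protein that both caspases cleave to let cytokines out of the cell, had 104 and 115 CPM in control and 162 and 160.4 CPM in propranolol libraries. The propranolol libraries were nearly equal and stood above both control libraries. Gsdmd differed by 0.55 on the log2 scale (standard error 0.10, adjusted p = 0.0019 in the edgeR test), 1.46-fold and just under the fold threshold. It was called higher without control replicate 2 (0.64), without propranolol replicate 2 (0.59) and with no filter on low counts (0.62). After GC correction the change of Gsdmd, the member richest in GC, was 0.28 (edgeR adjusted p = 0.0544).

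**Figure D4:**
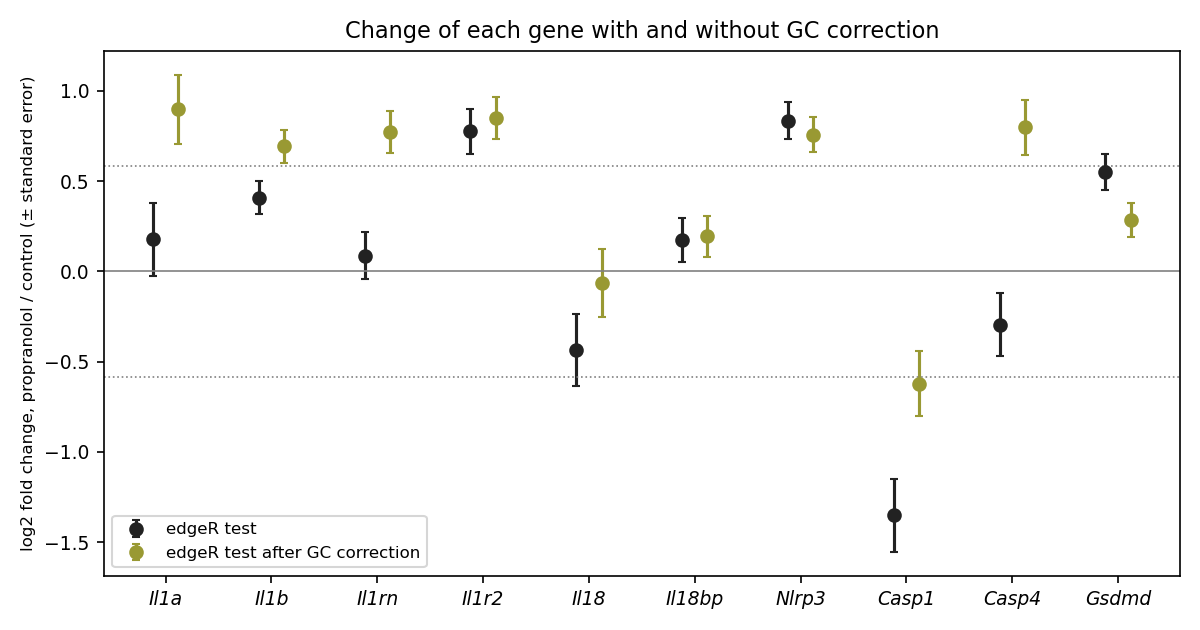
Log2 fold change of each of the 10 genes (propranolol over control) in the edgeR test, with its standard error, before (black) and after (olive) GC correction. Dotted lines mark a 1.5-fold change. Nlrp3 and Il1r2 stay at similar heights (0.84 and 0.76, 0.77 and 0.85), Casp1 moves from -1.35 to -0.62 and Casp4 from -0.30 to 0.80.

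Both propranolol libraries lay outside the control range in 8 of the 10 genes, 5 above and 3 below, while 72.6% of all tested genes had groups that did not overlap (35.8% above and 36.9% below). Per length of exon, Il1b was the most abundant of the 10, at 511 ± 11.2 TPM in control and 575 ± 24.8 TPM in propranolol libraries (SD, n = 2). In control TAMs it was followed by Gsdmd (154 TPM), Casp1 (119 TPM), Il1rn (77.7 TPM), Nlrp3 (76.8 TPM), Il18 and Il1r2 (both 43.1 TPM), Il18bp (39.8 TPM), Casp4 (28.5 TPM) and Il1a (17.2 TPM). The libraries of Il1rn overlapped those of Nlrp3, and the libraries of Il18 overlapped those of Il1r2. In propranolol libraries the order after Il1b was Gsdmd (191 TPM), Nlrp3 (116 TPM), Il1rn (69.7 TPM), Il1r2 (62.6 TPM), Casp1 (38.7 TPM), Il18bp (38.0 TPM), Il18 (26.7 TPM), Casp4 (19.4 TPM) and Il1a (16.3 TPM). Casp1, with 48.1 and 29.4 TPM in these libraries, overlapped Il18bp and Il18, Il1rn overlapped Il1r2, and Casp4 overlapped Il1a. Casp1 thus went from the third to the sixth place, and Nlrp3 from the fifth to the third.

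The other genes of these pathways were read from 5 lists with 76 genes, of which 58 had enough counts for a test. The lists were chosen with earlier results of these data known, and their shares of called genes were not tested. Of the 58, 11 were higher and 11 lower after propranolol (37.9%, against 27.8% of all tested genes), and after GC correction 12 were higher and 3 (Il18r1, Tab3 and the sensor Nlrc3) lower, 25.9% of the 58 against 12.6% of all tested genes (7.64% higher and 4.99% lower). Among 13 further ligands and receptors of the interleukin-1 family, 9 were tested. Their median log2 fold change was -0.92, with 1 gene higher and 3 lower (44.4%, against 27.8% of all tested genes). That median moved to -0.18 when control replicate 1 was left out, to -0.016 with DESeq2 and to 0.035 with no filter on low counts, both of which kept 11 genes. After GC correction it was -0.41, with 2 genes higher and 1 lower (33.3%, against 12.6% of all tested genes). The rise was that of Il1f9, which encodes interleukin-36 gamma, with 25 and 41 counts in control and 198 and 75 counts in propranolol libraries (1.69 and 1.63 against 5.45 and 4.91 CPM). Il1f9 rose by 1.64 on the log2 scale (standard error 0.33, adjusted p = 0.00292 in the edgeR test) and by 2.05 after GC correction.

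Of the 7 further receptor genes tested, 3 (Il18r1, Il18rap and Il1r1) were lower and 4 (Il1rl1, Il1rl2, Il1rap and Sigirr) were not called. After GC correction Il1rap, the accessory chain of the interleukin-1 receptor, moved from 0.03 to 0.67 and was called higher (edgeR adjusted p = 0.0146). Il18r1, the ligand-binding chain for interleukin-18, had 11.3 and 14.2 CPM in control and 3.82 and 2.29 CPM in propranolol libraries, a log2 fold change of -2.01 (adjusted p = 0.000478 in the edgeR test) that was still called after GC correction (-1.56). Il18rap, its partner chain, had 14.6 and 24.0 CPM in control and 11 and 8.25 CPM in propranolol libraries, a log2 fold change of -0.996 (edgeR adjusted p = 0.0092). It was not called without control replicate 2 (-0.56) or after GC correction (-0.63). Both chains are known from T and NK cells, whose markers fell from 391 and 422 CPM to 192 and 102 CPM in the same libraries, and their part in the result was not tested.

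Il1r1, the signalling receptor for interleukin-1, was scarce in TAMs, with 6.81 and 2.31 CPM in control and 1.18 and 0.917 CPM in propranolol libraries. Control replicate 1 stood well above the others, as it did in the fibroblast or fibrosarcoma markers, whose part in the result was not tested. Il1r1 fell by 2.06 on the log2 scale (standard error 0.53, adjusted p = 0.0114 in the edgeR test), but was not called without control replicate 1 (-1.06, edgeR adjusted p = 0.186) or after GC correction (-1.60). Il1rl2, the receptor for the interleukin-36 cytokines and the most abundant gene of this list by mean TPM, had 22.7 and 22.4 CPM in control and 22.7 and 21.2 CPM in propranolol libraries (log2 fold change -0.04).

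Downstream of the receptors, all 13 genes of the MyD88 and IRAK list were tested, with 1 higher, 2 lower and a median of 0.01 on the log2 scale. The 3 called genes were 23.1% of the list, against 27.8% of all tested genes. Tab1, a subunit of the TAK1 kinase complex, was higher (log2 fold change 0.70), while Tab3, another subunit of it (-1.33), and Ube2n, the ubiquitin-conjugating enzyme that works with Traf6 (-0.69), were lower. After GC correction the value of Tab1 was 0.36 and that of Ube2n 0.10, neither was called, and Tab3 was still lower (-0.64). The ubiquitin ligase gene Peli1 turned from -0.30 to 0.66 and was called higher under the correction (edgeR adjusted p = 0.00322), so that 15.4% of the list was called, against 12.6% of all tested genes. Ube2n was also not called without control replicate 1 or without propranolol replicate 2. Myd88, the most abundant uncalled gene by mean TPM, had 88.9 and 92.7 CPM in control and 136 and 119.6 CPM in propranolol libraries, a log2 fold change of 0.49 (adjusted p = 0.0045 in the edgeR test) that is under the fold threshold. Its value was 0.27 after GC correction (edgeR adjusted p = 0.0939) and 0.61 without propranolol replicate 2.

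Of 21 inflammasome sensors, adaptors and regulators, 19 were tested, of which 2 were higher and 5 lower (36.8%, against 27.8% of all tested genes). After GC correction 2 were higher and Nlrc3 (-0.75) lower, 15.8% against 12.6% of all tested genes. Their median log2 fold change was -0.10 (0.21 after GC correction). It was -0.025 without control replicate 1 and turned to 0.06 without propranolol replicate 2, and both of these fits kept 20 genes. Pycard, the adaptor ASC that links Nlrp3 to caspase-1, had 63.8 and 67.6 CPM in control and 132 and 102 CPM in propranolol libraries. Pycard rose by 0.83 on the log2 scale (adjusted p = 0.000917 in the edgeR test) and by 1.16 after GC correction. Mefv, which encodes the sensor pyrin, was higher as well, by 0.72 on the log2 scale and by 0.71 after GC correction. For Mefv too, the part of neutrophils and monocytes was not tested.

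The 5 lower genes of that list were Nek7, the kinase that Nlrp3 needs for its activation (log2 fold change -1.08), Brcc3, its deubiquitinase (-0.89), the DNA sensor Aim2 (-0.82), the sensor Nlrc4 (-0.59) and Casp12, a neighbour of Casp4 (-2.05). Nek7, for example, had 139.9 and 124 CPM in control and 62.8 and 61.3 CPM in propranolol libraries. After GC correction none of the 5 was called, with -0.26 for Nek7, -0.25 for Aim2, -0.27 for Nlrc4, -0.88 for Casp12 and 0.55 for Brcc3, which turned in direction. Casp12, with 13 counts in propranolol replicate 2, was at -3.06 without propranolol replicate 1 and at -1.56 without propranolol replicate 2. Nlrc4 was also not called by DESeq2, by limma-voom, or without control replicate 1, control replicate 2 or propranolol replicate 2. Txnip, a regulator of redox state that binds Nlrp3 and the most abundant gene of the list by mean TPM, had 405 to 442 CPM in the 4 libraries (log2 fold change 0.08).

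In the list of pyroptosis and membrane release, 5 of 12 genes were tested and 2 of these were called (40%, against 27.8% of all tested genes). Their median log2 fold change was 0.08. Ninj1, which ruptures the plasma membrane late in cell death, had 177 CPM in both control libraries and 333 and 305 CPM in propranolol libraries, a log2 fold change of 0.85 (adjusted p = 0.000204 in the edgeR test). Hmgb1, a chromatin protein released as an alarmin, had 123 and 104 CPM in control and 56.9 and 41.8 CPM in propranolol libraries, a log2 fold change of -1.19 (edgeR adjusted p = 0.000317). After GC correction these were 0.52 and -0.35, neither passed both thresholds, and the pore protein gene Gsdme was the 1 gene called (1.10). That gene was 20% of the tested list, against 12.6% of all tested genes called under the correction. Chmp4b, part of the membrane repair machinery and the most abundant of the uncalled genes by mean TPM, had a log2 fold change of 0.26.

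Of 17 genes that interleukin-1 is known to induce, 12 were tested, and 6 of these were higher and none lower in the edgeR test (50%, against 12.2% of all tested genes higher and 15.6% lower). Their median log2 fold change was 0.56, and 0.65 after GC correction, when 6 were higher again. These 6 were 50% of the tested list, against 7.64% of all tested genes higher and 4.99% lower under the correction. This list, too, was chosen with earlier results of these data known, so its share describes the list only. Icam1 was lost and Ptgs2, the inducible cyclooxygenase, was gained (0.48 before and 1.36 after). Saa3, an acute phase protein, had 11.4 and 2.55 CPM in control and 2.59 and 2.62 CPM in propranolol libraries. Control replicate 1 stood apart, and the log2 difference of -1.39 (edgeR adjusted p = 0.0701) was 0.083 without it. Saa3 was called lower by DESeq2, with no filter on low counts, and without control replicate 2 or propranolol replicate 2. The neutrophil chemokine Cxcl2 rose from 59.0 and 69.1 CPM to 154 and 194 CPM (log2 fold change 1.44, adjusted p = 0.000103 in the edgeR test). The other risen genes were Lcn2, an iron-binding protein of neutrophils and macrophages (2.33), the monocyte chemokine Ccl2 (1.12), the chemokine Cxcl1 (1.02), Nfkbia, the inhibitor of NF-kB (0.93), and the adhesion molecule Icam1 (0.63). Cxcl1 was not called without control replicate 2 or without propranolol replicate 2, Icam1 was at 0.33 after GC correction, and Lcn2, with few counts in control libraries, was at 3.00 without control replicate 2. Tnf, the uncalled gene with the highest TPM averaged over all 4 libraries (93.8, close to 92.1 for Nfkbiz), had 38.3 and 60.9 CPM in control and 52.3 and 48.8 CPM in propranolol libraries (log2 fold change 0.02). These genes respond to other signals too, and Lcn2 is also a neutrophil gene, so that the rise of neutrophil markers moved with them and its part was not tested.

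**Figure D5:**
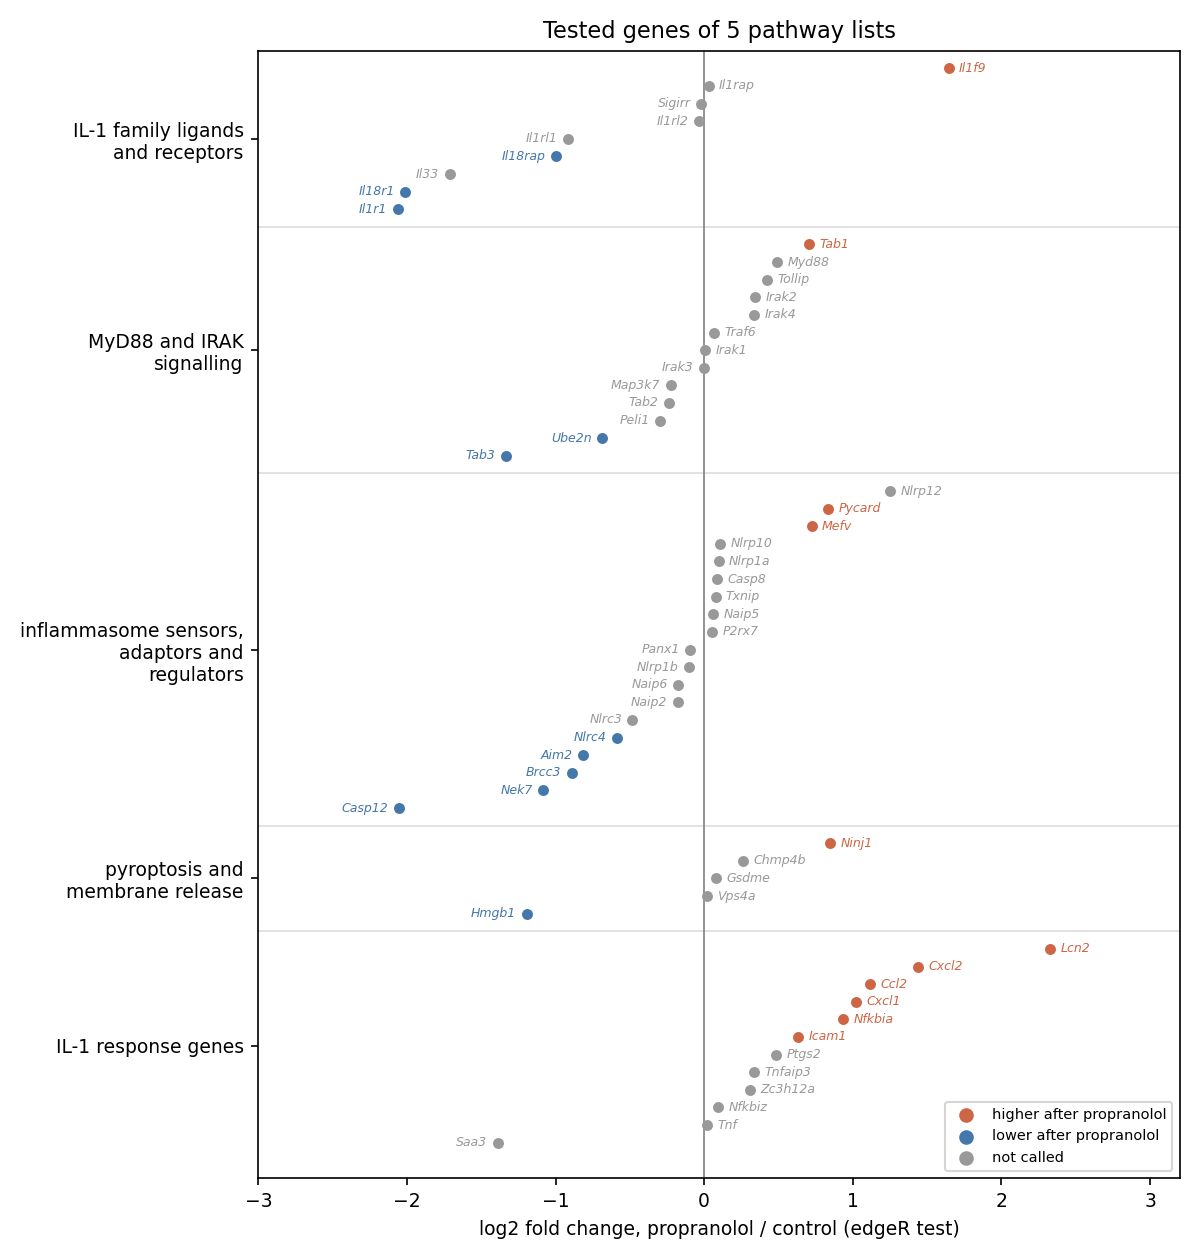
Log2 fold change (propranolol over control, edgeR test) of each of the 58 tested genes of 5 pathway lists, orange where called higher, blue where called lower and grey where not called. Il1f9 lies highest and Il1r1 and Il18r1 lowest among ligands and receptors, and the 6 called interleukin-1 response genes all lie above 0.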

How the data were processed

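RNA of sorted TAMs was sequenced in 4 libraries, 2 per group, grouped by the label that names the treatment. According to the methods, the authors aligned reads to mm10 with STAR 2.7.1a, filtered alignments by mapping quality with SAMtools 1.9 and counted fragments on exons with featureCounts 1.6.4 (versions from the submitters' processing notes). The deposited values are these whole-number counts per gene, without normalization. The GENCODE release and the strand setting of the counting are not given in the sources used here. Identifiers were matched to GENCODE M21, which gave a symbol for 54079 genes and none for 67.

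Counts were analysed in R 4.3.3 with edgeR 4.0.16 (TMM factors of 1.08 and 1.09 for control and 0.914 and 0.931 for propranolol libraries, filterByExpr with a minimum count of 10, glmQLFit and glmQLFTest without covariates, common dispersion 0.0172). limma 3.58.1 and DESeq2 1.42.0 served as alternatives. Replicates differed by more than counting noise (chi-square per degree of freedom 7.56 for control and 9.83 for propranolol libraries). TPM used the union of annotated exons. The GC correction fitted each library's log2 CPM deviations to gene GC content by a natural spline (5 degrees of freedom) and subtracted the fit as an offset. Low genes are limited by depth, which was lowest in control replicate 1. The steps were run on simulated counts with known changes and a common dispersion, with and without a GC trend added to the propranolol libraries. Such simulations cannot say where the GC trend of the real libraries arose, or whether its removal is right for them. Promoter windows and starts come from RefSeq (GRCm38.p6), and the motifs were chosen after the genes' values were seen.

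All 10 members are named. From each pathway list every called gene and the most abundant uncalled gene by TPM are named, from each marker list the most abundant gene and the markers at 0 counts, and every gene that overlaps a member on either strand. Genes singled out beyond this rule (Ly6g, Csf1r, Mrc1, Ms4a1, Gata2, Cdh5, Il1rl1, Il1rap, Sigirr, Nlrc3, Gsdme, Peli1, Ptgs2, Saa3, Nfkbiz, and the neighbouring genes of the closing section) were chosen after their values were seen. The members and lists were chosen with earlier results of these data known.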

Additional observations from a re-analysis of the deposited data

How the results depend on the processing

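Casp1 stayed called lower in all 15 fits run on each of the 10 genes (log2 fold change -1.81 to -0.61), and Il18bp stayed uncalled (0.10 to 0.27). Nlrp3 (0.74 to 0.91) and Il1r2 (0.72 to 0.86) kept their call in 14, glmTreat being the exception. Of the 10 genes, 3 were called, against 1 by glmTreat, 7 with the GC correction, with that correction and the replicate block, and with GC and length corrected together, 0 at a log2 fold change above 1.5, 5 without a fold threshold and 3 to 5 with a library left out (5 without propranolol replicate 1). Of the pathway genes 22 were called, against 11 by glmTreat and 5 at a log2 fold change above 1.5. Of all genes 4084 were called, against 1093 by glmTreat, 1855 with the GC correction, 2128 with it and the block, 1849 with GC and length, 728 at a log2 fold change above 1.5, 6204 without a fold threshold and 3615 to 4329 with a library left out. The share of calls that were higher was 44.0%, against 60.5% with the GC correction, 55.5% with it and the block, 59.5% with GC and length, 54.4% without control replicate 1 and 8.38% at a log2 fold change above 1.5. Casp4 turned to 0.80, 0.77 and 0.78 under the 3 corrections and Il1rn ranged from -0.09 to 0.27 with a library left out, turning below 0 without control replicate 2 (-0.02) or propranolol replicate 1 (-0.088). With the GC correction the differences in log2 ratio were 0.076 for Il1rn to Il1b, reversed, 0.16 for Il1r2 to Il1b and 0.28 for Il18bp to Il18. The cause of these moves was not tested. The samples share only a replicate number, whose deviations correlated at 0.169 across genes, and the replicate block called 4362 genes and the same number of members, 3. A group reduced to 1 library was taken to have the spread of the other. No group has enough libraries for an outlier test, and 2 libraries a group with 13798249 counts in the shallowest limit what Il1a, Il18, Il1r1 and Il1f9 can show.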

Other observations

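Several of these genes are neighbours in the genome, and the runs given here were chosen after their values were seen. On chromosome 1 (GRCm38), 6 receptor genes of the family follow each other without another protein-coding gene between them, from Il1r2 (40074079 to 40125231) to Il18rap (40515362 to 40551705), all on the plus strand. Il1r2, the first, was higher after propranolol (log2 fold change 0.77), and its neighbour Il1r1 was lower (-2.06, adjusted p = 0.0114 in the edgeR test, and -1.06 without control replicate 1). Il1rl2 followed with -0.04, then Il1rl1, the receptor for interleukin-33, with -0.92 (edgeR adjusted p = 0.0729), and Il18r1 (-2.01) and Il18rap (-0.996) were lower. Il1rl1 had 10.2 and 4.54 CPM in control and 4.24 and 3.41 CPM in propranolol libraries, with control replicate 1, the library richest in fibroblast or fibrosarcoma markers, apart from the others. It was at -0.18 without that library, at -0.41 after GC correction, and called lower without control replicate 2 (-1.39), without propranolol replicate 1 (-1.10), with no filter on low counts (-0.84) and under the replicate block (-0.88, edgeR adjusted p = 0.0275). After GC correction Il1r2 was at 0.85 and Il18r1 at -1.56, and these 2 of the 6 were called. Of all tested genes, 12.6% were called after the correction and 27.8% before it.

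On chromosome 9, Casp1, Casp4 and Casp12 stand in a row, at 41.1%, 38.1% and 37.3% GC. Their log2 fold changes were -1.35, -0.30 and -2.05 before and -0.62, 0.80 and -0.88 after GC correction. On chromosome 2, Il1f8, Il1f9, Il1f6, Il1f5, Il1f10 and Il1rn follow each other as protein-coding genes. Il1f9 and Il1rn had counts in every library, Il1f8 had 2 and Il1f5 had 3 counts, all in propranolol replicate 1, and Il1f6 and Il1f10 had 0 counts in all 4 libraries, too few for a test.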
